A study of Mus musculus with 16 samples.

Results

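Txnip and 9 genes of the thioredoxin and peroxide-detoxifying systems were followed in mouse bone marrow. The genes were Txnip, Txn1, Txnrd1, Prdx1, Prdx2, Prdx5, Sod1, Sod2, Cat and Gpx1, which are 10 of the 27998 genes in the count matrices, and each was found by its symbol in all 8 matrices. Droplet-based 3' single-cell RNA sequencing (10x Genomics) had been done on lineage-depleted marrow, a fraction from which most mature blood cells are removed. The design crossed genotype with treatment. WT mice were Tet2fl/fl without Cre, and Tet2-KO mice were Tet2fl/fl carrying Vav-Cre, whose promoter is active throughout the blood system, so that the Cre transgene was present only in Tet2-KO mice. All were C57BL/6 mice labelled as 6 to 12 weeks old. They received 500 ng per mouse per day of recombinant IL1β or vehicle intraperitoneally for 5 weeks. Each of the 4 groups (WT vehicle, WT IL1β, Tet2-KO vehicle and Tet2-KO IL1β) had 4 mice. Cells of 2 mice of a group were marked with hashtag antibodies and pooled into 1 library, so each of the 8 libraries held a single group, and library and treatment cannot be told apart.

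Thioredoxin (Txn1) is a small protein that reduces disulfide bonds in the cytosol, and thioredoxin reductase 1 (Txnrd1) returns it to the reduced state with electrons from NADPH. Txnip, an alpha-arrestin, binds reduced thioredoxin and inhibits it, lowers glucose uptake, and is known as a gene that helps keep hematopoietic stem cells quiescent. Peroxiredoxins (Prdx1 and Prdx2 in the cytosol, Prdx5 in mitochondria, peroxisomes and cytosol) remove peroxides with electrons from thioredoxin. Superoxide dismutases (Sod1 in the cytosol, Sod2 in mitochondria) turn superoxide into hydrogen peroxide, which catalase (Cat) in peroxisomes and glutathione peroxidase 1 (Gpx1) then remove.

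The promoters of Txnip, Prdx1 and Sod1 are shown because these genes, of the inhibitor, peroxiredoxin and dismutase families, carried called differences below. Each sequence is the 250 bases before the RefSeq start (GRCm38.p6), 5′ to 3′ on the strand of the gene, and capitals mark motif matches on either strand.
Txnip, chr3:96557707-96557956, plus strand: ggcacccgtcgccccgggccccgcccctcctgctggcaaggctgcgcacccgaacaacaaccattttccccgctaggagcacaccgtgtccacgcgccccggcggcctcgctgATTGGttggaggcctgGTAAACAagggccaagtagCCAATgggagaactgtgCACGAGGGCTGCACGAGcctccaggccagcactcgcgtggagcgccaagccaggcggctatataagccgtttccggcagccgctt
Prdx1, chr4:116685349-116685598, plus strand: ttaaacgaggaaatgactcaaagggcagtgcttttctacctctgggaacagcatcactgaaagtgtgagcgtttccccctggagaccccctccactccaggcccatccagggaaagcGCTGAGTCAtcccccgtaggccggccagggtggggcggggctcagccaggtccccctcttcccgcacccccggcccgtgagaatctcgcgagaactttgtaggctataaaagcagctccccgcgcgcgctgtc
Sod1, chr16:90220512-90220761, plus strand: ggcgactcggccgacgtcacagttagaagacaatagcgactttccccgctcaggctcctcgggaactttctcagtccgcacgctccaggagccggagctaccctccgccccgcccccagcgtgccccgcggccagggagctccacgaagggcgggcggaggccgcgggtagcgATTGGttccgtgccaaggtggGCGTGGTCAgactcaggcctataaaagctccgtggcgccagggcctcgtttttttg
In the Txnip promoter CCAAT boxes lie at -137 (read on the other strand) and -102 from the start site. Between them, at -121, lies the forkhead motif, spelled GTAAACA. The last capitals, at -85, are the paired E-box of the carbohydrate response element, in which CACGNG occurs on both sides of any 5 bases. Of 32851 mouse promoters of this length, 15 (0.0457%) held the paired E-box, 1040 (3.17%) the forkhead motif and 11120 (33.8%) a CCAAT box. The core of the antioxidant response element (TGACNNNGC), to which Nrf2 binds, was in 3338 promoters (10.2%), and the capitals in Prdx1 (at -133) and the second run in Sod1 (at -56) are matches to it. Among the members, Txnrd1 also held it, in 1 of its 3 promoters. An E-box of the form CACGTG was in 6.02% of promoters and in 0 of the 12 member promoters, and an NF-kB motif (GGGA and TTCC with any pair of bases between them) was in 1.21% of promoters and, among members, in that of Gpx1. These matches describe letters only. All 10 genes matched a RefSeq promoter. CCAAT matches were found in Cat, Sod1, Sod2, Txnip and Txnrd1, and no motif of the 6 searched overlapped another in the sequences shown.

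After filtering, 94917 cells remained, and 57896 of them were assigned to 1 mouse each. Clusters were made from WT vehicle cells, and cells of the other groups were placed in them by similarity. Clusters were named only from listed marker genes, and 17 classes were named, of which 15 had at least 10 cells in at least 3 mice of every group and were tested. The classes, each read as "-like", were hematopoietic stem cells (HSC), multipotent progenitors (Prog), immature myeloid progenitors (IMP), granulocyte-monocyte progenitors (GMP), monocytes (Mono), neutrophils (Neut), basophils (Baso), dendritic cells (DC), megakaryocyte progenitors (MegP), megakaryocyte-erythroid progenitors (MEP), CFU-E, erythroblasts (EryB), common lymphoid progenitors (CLP), B and plasma cells, and T and NK cells, with eosinophils (Eo) and plasmacytoid DC (pDC) too few to test. UMIs summed over assigned cells ranged from 4388604 to 44152768 per mouse, and in HSC-like cells from 126037 to 2606058, over 39 to 644 cells. In CLP-like, MEP-like and T/NK-like cells 1 mouse had under 10 cells and was left out of the fit (WT IL1β mouse 2, Tet2-KO vehicle mouse 2 and WT vehicle mouse 2), and 22.8% of EryB-like cells were assigned to a mouse. Among the 10 leading genes of the IMP cluster, 2 were IMP markers and 2 GMP markers, and cluster 4, which is part of the Prog class, had 1 Prog and 1 CLP marker. By the per-cell marker gate, more cells of the Prog class were assigned to IMP (830) than to Prog (652), and more cells of the DC class to Mono (1211) than to DC (623). Likewise, more cells of the EryB class were assigned to CFU-E (1804) than to EryB (1159), so these 2 erythroid classes are not cleanly separate. Of 5089 cells in the HSC class, 1738 were assigned to HSC, 1454 to Prog and 1651 to no class. By this gate, HSC-like values are thus not those of stem cells alone. In the HSC class all 8 markers were detected in each group, with a summed level of 1503 to 1744 CPM (counts scaled to the total UMIs of the mouse in that class) in WT vehicle mice. This sum was 845 to 1285 in WT IL1β, 1492 to 1859 in Tet2-KO vehicle and 1197 to 1468 in Tet2-KO IL1β mice, while the summed GMP markers in the same class were 875 to 1492, 1686 to 2257, 961 to 1447 and 1535 to 2568. The median share of mitochondrial UMIs per cell was 4.627% to 5.19% in the IL1β libraries and 3.499% to 4.239% in the vehicle libraries, without overlap. Of 119630 distinct barcodes, 1739 (1.454%) occurred in more than 1 library. Tet2 itself was at 31.0 to 46.9 CPM in WT vehicle and 36.4 to 46.2 CPM in Tet2-KO vehicle mice, and 3' counts of this gene do not check the deletion.

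The 2 libraries of a group did not always match in the member genes. In the Tet2-KO vehicle group, Sod1 was higher in the library of mice 1 and 2 than in that of mice 3 and 4 in 15 of 15 classes, by a median of 0.72 on the log2 scale (0.34 to 1.25), and Prdx2 was lower in 15 of 15, with a median of -0.47 (-0.81 to -0.07). In the other groups the median difference of Sod1 between the libraries was -0.17 (WT vehicle), 0.04 (WT IL1β) and 0.19 (Tet2-KO IL1β), and that of Prdx2 was 0.11, 0.21 and -0.32. Txnip had medians of 0.11, -0.16, -0.14 and 0.23 in WT vehicle, WT IL1β, Tet2-KO vehicle and Tet2-KO IL1β. The Tet2-KO vehicle library of mice 1 and 2 also had the highest median mitochondrial share of the vehicle libraries (4.239%) and that of mice 3 and 4 the lowest (3.499%), and the part of this in the differences was not tested. Effects of IL1β named for Tet2-KO mice are therefore given below also without these libraries, a choice made after seeing the data. With 2 vehicle mice fewer a call can be lost while the fold change stays as large, so both are given.

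Levels across cell types are given first for WT vehicle mice, as CPM of the UMIs summed per mouse and class (mean ± SD, n = 4 unless stated). Because 3' UMIs are not scaled to transcript length and capture differs between genes, levels are compared between classes and not between genes, and the order of classes is a description without a test. Txnip was highest in Baso-like (229.6 ± 35.1) and HSC-like cells (199.6 ± 32.8), followed by T/NK-like (182 ± 54.0, n = 3), B/plasma-like (172 ± 57.2) and MEP-like cells (149.6 ± 67.2). It was lowest in myeloid and erythroid progenitors, at 30.7 ± 4.97 in GMP-like, 29.6 ± 9.01 in CFU-E-like and 25.8 ± 5.2 in IMP-like cells, and the highest class was 8.90 times the lowest. Of the 16 neighbouring pairs in this order, 15 overlapped between mice. The exception was Prog-like (59.7 ± 8.37) against EryB-like cells (40.5 ± 3.89), below which only GMP-like, CFU-E-like and IMP-like cells followed. Over the 17 classes, the genes whose pattern was most like that of Txnip, out of 5982, were Jund (Pearson's r = 0.928), Fosb (0.919) and Egr1 (0.897), which encode immediate-early transcription factors.

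Txn1 varied least of the 10 genes, by 2.41-fold between Neut-like (1038 ± 37.7) and pDC-like cells (431 ± 64.8, n = 3). Neut-like cells did not overlap the next class, GMP-like cells (912 ± 45.1), and HSC-like cells (715 ± 37.3) overlapped the CFU-E-like and EryB-like cells beside them in the order. Txnrd1 was highest in HSC-like cells (86.9 ± 15.0) and lowest in DC-like cells (21.0 ± 15.2), a 4.15-fold span in which all 16 neighbours overlapped. The gene nearest to Txnrd1 in pattern was Dnmt3b (r = 0.851), which encodes a DNA methyltransferase, followed by Tspan4 (0.842) and Gbp7 (0.806). Those nearest to Txn1 were Lyrm2 (0.862), Aldoa (0.806) and Aprt (0.780).

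The peroxiredoxins differed in where they were high. Prdx2, an abundant protein of red cells, was at 1817 ± 234 in EryB-like and 1126 ± 126 in CFU-E-like cells, and at 145 ± 38.5 in Neut-like cells, a 12.5-fold span. EryB-like cells did not overlap CFU-E-like cells, and MEP-like cells (591 ± 70.9) did not overlap HSC-like cells (407 ± 35.2). Prdx5 had the widest span of the 10 genes (23.2-fold), from 1553 ± 68.7 in Neut-like through 829 ± 197 in Mono-like and 569.6 ± 36.7 in GMP-like cells to 66.9 ± 19.6 in MEP-like cells, with no overlap between the top 3 neighbours. Across the 17 classes Prdx2 and Prdx5 had r = -0.719, a description over classes that share libraries. Prdx1 was highest in Mono-like cells (701 ± 69.4) and lowest in Neut-like cells (163 ± 28.3), which did not overlap the GMP-like cells above them (348 ± 45.7). The nearest genes in pattern were Ubac1 (r = 0.967), E2f4 (0.930) and Ctse (0.929) for Prdx2, C3 (0.943) and Clec4a2 (0.916) for Prdx5, and Ogdh (0.898), Tspan31 (0.840) and 2700060E02Rik (0.820) for Prdx1.

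Both dismutases were highest in erythroid cells. Sod1 was at 328 ± 20.9 in CFU-E-like and 298 ± 9.25 in EryB-like cells and at 77.6 ± 16.9 in Neut-like cells, and Sod2 was at 180.4 ± 18.3, 154 ± 9.82 and 50.1 ± 18.2 in the same classes. All 16 neighbours overlapped for Sod2 and 15 for Sod1. Cat was highest in Eo-like cells (76.6 ± 3.16, n = 2) and Baso-like cells (64.1 ± 7.2) and lowest in Neut-like cells (14.5 ± 9.26). Gpx1 was highest in Mono-like (2221 ± 88.1), GMP-like (1886 ± 60.0) and IMP-like cells (1775 ± 51.5) and lowest in MegP-like cells (542 ± 58.7), and 12 of its 16 neighbours overlapped. Neut-like cells were thus at the bottom of the order for Prdx1, Prdx2, Sod1, Sod2 and Cat and at the top for Txn1 and Prdx5. The nearest genes were Hspa8 (r = 0.894), Atic (0.887) and Mtch2 (0.880) for Sod1 and Pla2g12a (0.914), Eif2b4 (0.912) and Mrps28 (0.911) for Sod2. For Cat they were Yy1 (0.867), Sf1 (0.839) and Uspl1 (0.830), and for Gpx1 Rab24 (0.857), Mrpl33 (0.833) and Znhit1 (0.815). The plot of levels by class shows these orders side by side.

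**Figure D1:**
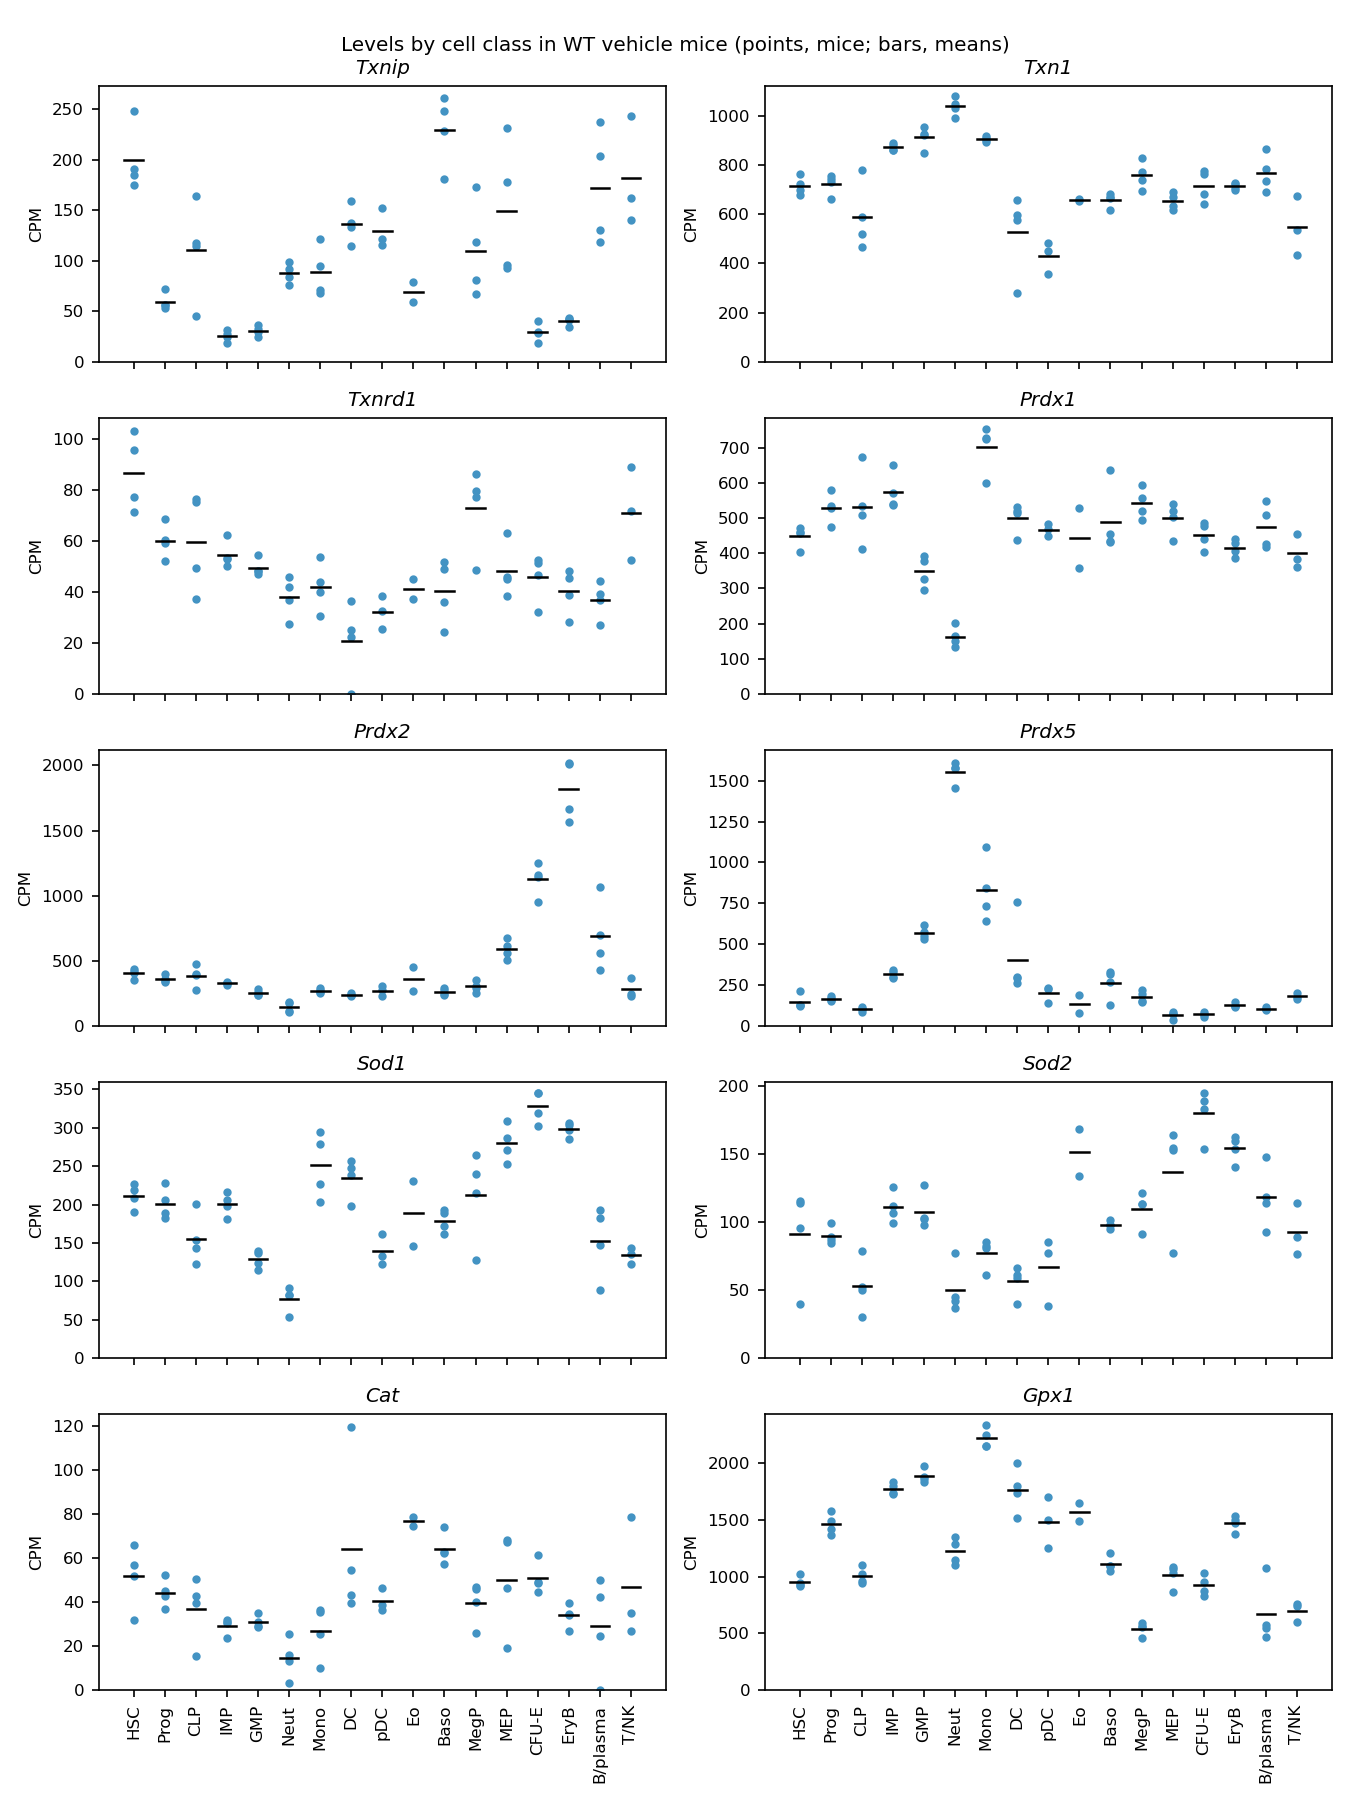
Level of the 10 genes (panels; CPM on linear axes from 0) in the 17 named classes of WT vehicle mice, with a point for each mouse and a bar at the mean. Prdx2 peaks in EryB-like cells and Prdx5 in Neut-like cells, while Txnip is highest in Baso-like and HSC-like cells and lowest in IMP-like cells.

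Whether 5 weeks of IL1β changed these genes was tested within each class, by edgeR's quasi-likelihood test on UMIs summed per mouse, with Benjamini-Hochberg adjustment over all genes of the class and a threshold of 0.05. In WT mice, 53 of 150 gene-class pairs passed (24 higher and 29 lower with IL1β), against 12.2% of all 117575 pairs tested (5.11% higher and 7.11% lower). In Tet2-KO mice, 46 of 150 passed (23 higher and 23 lower), against 14.9% of all pairs (6.44% higher and 8.46% lower). With all mice, members were thus called more often than the background in both genotypes. The members were chosen with earlier results of these data known, and the background was not matched to them in level. The classes also share mice, so the excess is a description only. Directions were split by gene: Sod1, Cat and Txnip were called only as higher, and Prdx1, Prdx2, Prdx5 and Sod2 only as lower. The WT count was 33 without WT IL1β mouse 3 and 35 without WT vehicle mouse 1, and 22 of 150 (14.7%) with libraries in place of mice as replicates, where 4.85% of all pairs passed. For Tet2-KO the count was 19 of 150 (12.7%, against 4.68% of all pairs) with libraries as replicates. Library sums also held cells not assigned to a mouse. The remaining Tet2-KO counts leave out 1 vehicle library. The Tet2-KO count was 13 of 146 (8.9%, against 3.37% of all pairs) without the vehicle library of mice 3 and 4, and 52 of 150 (34.7%, against 15.8%) without that of mice 1 and 2. The plot of fold changes by class shows all pairs.

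**Figure D2:**
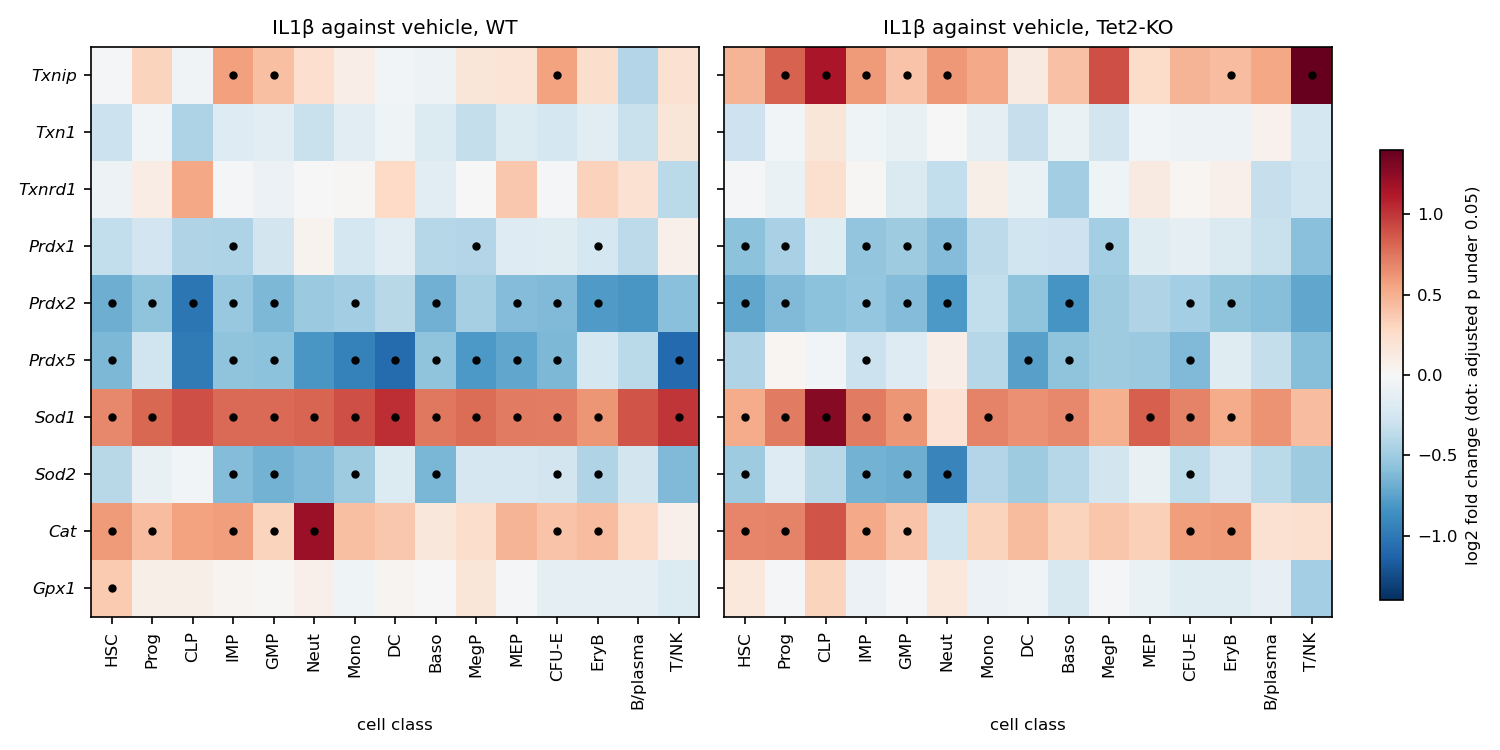
Log2 fold change with IL1β against vehicle for each of the 10 genes (rows) in the 15 tested classes (columns), with 1 panel for each genotype, where colour gives the size and direction and a dot marks an adjusted p under 0.05. Sod1 is above 0 and Prdx2 below 0 in all 15 classes in both genotypes; without the Tet2-KO vehicle library of mice 3 and 4, Sod1 is above 0 in 14 of 15 classes in Tet2-KO mice.

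Txnip, the inhibitor of thioredoxin, was higher with IL1β in 7 of 15 classes in Tet2-KO mice and in 3 of 15 in WT mice (CFU-E-like, GMP-like and IMP-like). By DESeq2 it was called in 4 classes in Tet2-KO and 3 in WT mice. In HSC-like cells, normalised values (TMM-scaled CPM) in mice 1 to 4 were 186, 193, 187 and 252 in WT vehicle and 184, 142, 242 and 260.2 in WT IL1β mice. In Tet2-KO mice they were 204, 153, 241 and 186 with vehicle and 218, 359.7, 192 and 330.4 with IL1β. These are sums over cells, in which the number of cells with Txnip and its level per cell were not separated. The WT groups covered much the same range, and in Tet2-KO mice with IL1β mice 2 and 4 were above every vehicle mouse while mice 1 and 3 were not. The log2 fold change was -0.02 ± 0.20 (SE) in WT (adjusted p = 0.981) and 0.48 ± 0.18 in Tet2-KO mice (adjusted p = 0.0617), neither past the threshold. Behind these values stood 24 to 969 Txnip UMIs per mouse. The Tet2-KO value was past the threshold under 4 of 6 other ways of processing the data, with adjusted p of 0.000793 to 0.041, and was 0.38 and 0.61 without each vehicle library, with adjusted p of 0.228 and 0.134.

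**Figure D3:**
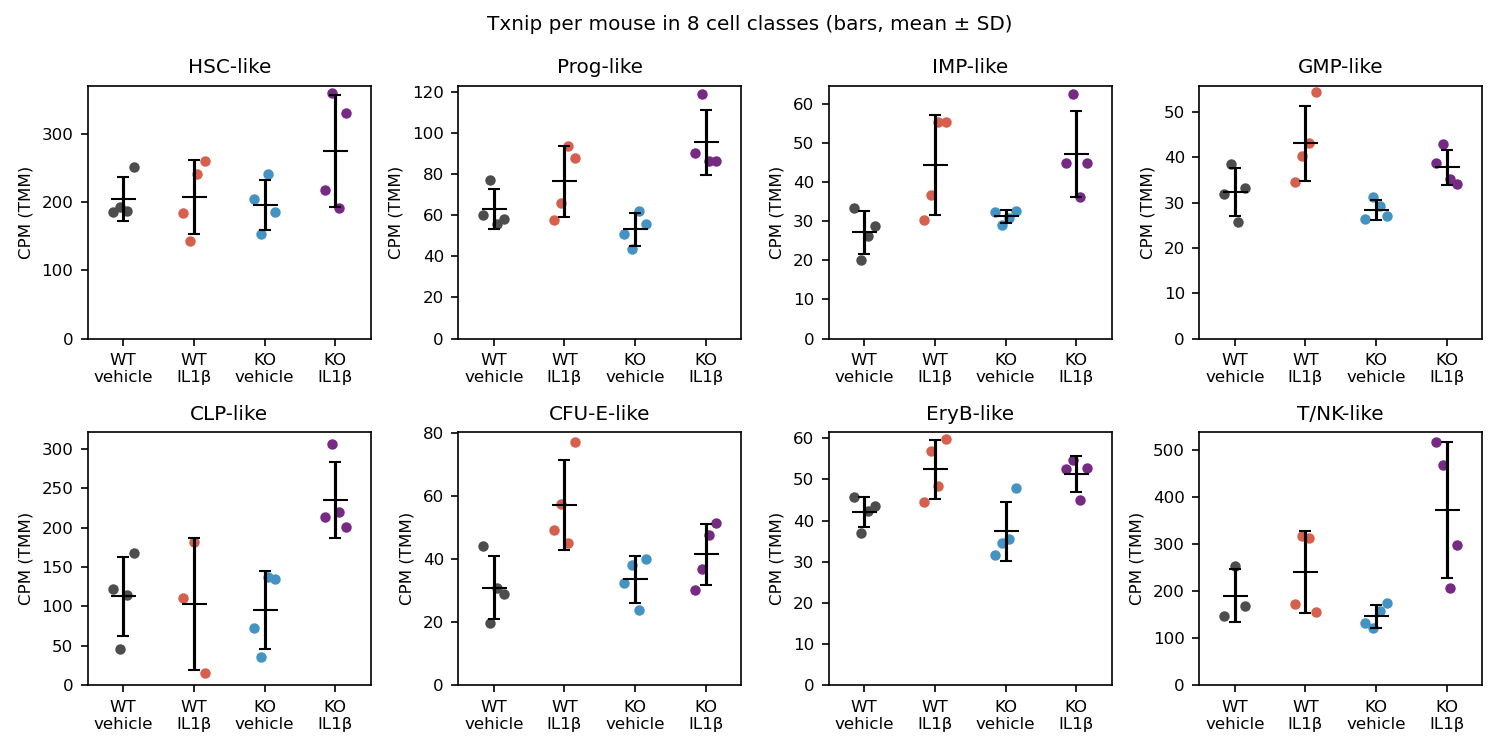
Txnip in each mouse (points, TMM-scaled CPM) by group in 8 classes, with bars for mean ± SD. In Prog-like cells the 4 Tet2-KO IL1β mice sit above the 4 Tet2-KO vehicle mice, and in HSC-like cells the groups overlap.

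In Prog-like cells Txnip was 50.9, 43.3, 62.0 and 55.9 in Tet2-KO vehicle mice and 90.1, 119, 86.2 and 86.3 with IL1β. The groups did not overlap, and the log2 fold change was 0.83 ± 0.15 (adjusted p = 0.000356). It was 0.71 and 1.00 without the vehicle library of mice 1 and 2 or of 3 and 4, both called. The class joins 2 clusters, 4 and 13, and cluster 4 held 60.7% of the class in Tet2-KO vehicle and 33.0% in Tet2-KO IL1β mice. Within cluster 4, Txnip was 51.4 ± 5.22 CPM with vehicle and 84.9 ± 19.3 with IL1β (SD, n = 4), and within cluster 13 it was 50.9 ± 10.1 and 103.9 ± 16.8, and neither pair of ranges overlapped. In WT Prog-like cells the values were 60.3, 77.2, 55.8 and 58.2 with vehicle and 57.9, 66.0, 93.7 and 88.0 with IL1β, which overlap, with a log2 fold change of 0.32 ± 0.16 (adjusted p = 0.17). The make-up of the class shifted alike in WT mice, where cluster 4 held 63.9% with vehicle and 35.1% with IL1β. Txnip in WT mice was 55.3 ± 7.10 and 75.8 ± 30.9 CPM within cluster 4 and 65.8 ± 13.4 and 82.6 ± 16.2 within cluster 13, and the ranges overlapped in both.

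The largest rises of Txnip in Tet2-KO mice were in lymphoid classes. In T/NK-like cells it was 131, 122, 157 and 174 with vehicle and 517, 467, 207 and 298 with IL1β, a log2 fold change of 1.4 ± 0.27 (adjusted p = 0.0036), and in CLP-like cells it was 72.4, 36.0, 138 and 135 and 213, 306, 219.9 and 201, a change of 1.14 ± 0.32 (adjusted p = 0.0399). Neither pair of groups overlapped. The T/NK-like change was 1.22 and 1.61 without the vehicle library of mice 1 and 2 or of 3 and 4 (adjusted p = 0.0314 and 0.0343). The CLP-like change was 0.83 without mice 1 and 2 and no longer called (adjusted p = 0.11), and 1.90 without mice 3 and 4 (adjusted p = 0.0312). In the myeloid progenitors Txnip was low but the groups separated in Tet2-KO mice, with 32.3, 29.1, 30.8 and 32.7 against 44.9, 62.4, 36.1 and 44.9 in IMP-like cells (0.59 ± 0.17, adjusted p = 0.00952) and 26.4, 31.3, 29.1 and 27.0 against 38.6, 42.9, 35.2 and 34.2 in GMP-like cells (0.40 ± 0.12, adjusted p = 0.0155). Without mice 3 and 4 or 1 and 2 these changes stayed about as large, at 0.61 and 0.57 in IMP-like cells (adjusted p = 0.0745 and 0.0377) and 0.40 and 0.41 in GMP-like cells (adjusted p = 0.0854 and 0.0606), with only the second IMP-like value past the threshold. In WT mice IMP-like cells went from 33.5, 20.1, 26.1 and 28.8 to 30.4, 36.7, 55.4 and 55.2 (0.57 ± 0.20, adjusted p = 0.0365), with an overlap between groups. Over the 15 classes the median log2 fold change was 0.19 in WT (-0.41 to 0.57) and 0.53 in Tet2-KO mice (0.13 to 1.4), and leaving out either vehicle library gave 3 called classes in Tet2-KO mice, with medians of 0.51 (without mice 1 and 2) and 0.61 (without mice 3 and 4). An antisense gene, Gm15441, overlaps Txnip (chr3:96557957-96561883, GRCm38), and the strand setting of the counting is not given in the sources used here.

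Txn1 and Txnrd1, the thioredoxin and its reductase (at chr4:57943373-57956411 on the minus strand and chr10:82833951-82897712 on the plus strand), had no called class in either genotype by edgeR with all mice. Without the Tet2-KO vehicle library of mice 3 and 4, Txnrd1 was called as lower in 1 of 14 classes in Tet2-KO mice, GMP-like cells (-0.31, adjusted p = 0.0476, against -0.20 and 0.103 with all mice), with a median of -0.24 over classes, against -0.06 with all mice and 0.08 without mice 1 and 2. Txn1 was called in 0 classes without either library. At an unadjusted p under 0.05, Txn1 had 4 classes in WT and 2 in Tet2-KO mice and Txnrd1 had 2 and 2, and DESeq2 called 1 class for Txn1 in WT and 0 otherwise. Of all 9680 genes tested in HSC-like cells, 2583 in WT and 3237 in Tet2-KO mice were under this unadjusted cutoff. In HSC-like cells Txn1 was 811, 733, 684 and 708 in WT vehicle and 695, 671, 522 and 484 in WT IL1β mice, with WT IL1β mouse 1 above the lowest vehicle mouse. Tet2-KO mice had 566, 755, 597 and 664 with vehicle and 505, 470.3, 546 and 578 with IL1β, which overlapped as well, and the log2 fold changes were -0.30 ± 0.12 and -0.29 ± 0.12 (adjusted p = 0.11 and 0.0837). Txnrd1 in the same cells was 75.8, 105, 96.6 and 78.6 in WT vehicle and 72.6, 93.8, 78.0 and 100.1 in WT IL1β mice. Tet2-KO mice had 91.8, 98.5, 70.4 and 82.7 with vehicle and 75.2, 84.3, 101 and 67.9 with IL1β, and all groups overlapped. Its log2 fold changes were -0.07 ± 0.16 in WT and -0.02 ± 0.14 in Tet2-KO mice. Gm38560 and Gm47073 overlap Txnrd1 on the other strand and Eid3 on the same strand.

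Prdx2, which takes electrons from thioredoxin to reduce peroxides, was lower with IL1β in 10 of 15 classes in WT and 8 of 15 in Tet2-KO mice, and its fold change was negative in 15 of 15 in both. The median log2 fold change was -0.60 in WT (-1.01 to -0.39) and -0.58 in Tet2-KO mice (-0.83 to -0.34). In HSC-like cells Prdx2 was 464, 362, 429 and 416 in WT vehicle and 289, 252, 247 and 260.2 in WT IL1β mice. The groups did not overlap, and the change was -0.68 ± 0.13 (adjusted p = 0.00133). In this class the summed GMP markers were higher and the summed HSC markers lower with IL1β in both genotypes. Prdx2 was lower in GMP-like (256 ± 18.4 CPM) than in HSC-like cells (407 ± 35.2) of WT vehicle mice. Their part in the HSC-like change of either genotype was not tested. In EryB-like cells, where Prdx2 was highest, it was 2178, 2141, 1691 and 1578 and 1164, 1319.7, 1014 and 868, again without overlap (-0.80 ± 0.15, adjusted p = 0.00102). That class joins 3 clusters, and the cluster with the most cells was cluster 11 in WT vehicle (52.1%) and cluster 14 in WT IL1β mice (46.8%, with 41.3% in cluster 11). CLP-like cells of WT mice had 494, 278, 386 and 406 with vehicle and 235, 214 and 139.9 with IL1β (n = 3), a change of -1.01 ± 0.28 (adjusted p = 0.0324).

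Among Tet2-KO mice the largest called changes of Prdx2 were in Baso-like cells, with 217, 309, 343 and 333 against 170.4, 139, 173 and 196 (-0.83 ± 0.14, adjusted p = 0.00309), and in Neut-like cells, with 129, 151, 189 and 105 against 72.9, 75.5, 92.6 and 93.0 (-0.81 ± 0.18, adjusted p = 0.0113). Both pairs of groups were apart. The Baso class joins clusters 8 and 17, and cluster 8 held 69.7% of it in Tet2-KO vehicle and 82.3% in Tet2-KO IL1β mice. The part of this shift in the Baso-like change was not tested. In HSC-like cells the values were 349.8, 446, 489 and 529.8 and 233, 236, 310.1 and 314, with a change of -0.73 ± 0.13 (adjusted p = 0.000323). Without the Tet2-KO vehicle library of mice 3 and 4, Prdx2 was called in 1 class, HSC-like cells (-0.51, adjusted p = 0.0431), with a median of -0.30 over classes (-0.71 to -0.06), and without that of mice 1 and 2 in 12 (median -0.82). The Baso-like change was -0.58 (adjusted p = 0.147) without mice 3 and 4 and -1.02 (adjusted p = 0.000194) without mice 1 and 2. The Neut-like change stayed about as large, at -0.71 and -0.91, but was not called either time (adjusted p = 0.0819 and 0.0735). RNA of EryB-like cells free in the droplets could account for at most 4.61% to 12.1% of Prdx2 UMIs in HSC-like cells of WT vehicle mice and at most 6.18% to 20.6%, 7.90% to 14.0% and 9.96% to 34.4% in WT IL1β, Tet2-KO vehicle and Tet2-KO IL1β mice, taking all hemoglobin UMIs there as free RNA from EryB-like cells. Free RNA from CFU-E-like cells, where Prdx2 was also high, is not covered by this limit. The same upper limit in Neut-like cells was 9.62% to 23.1% in Tet2-KO vehicle and 6.27% to 20.1% in Tet2-KO IL1β mice, and in Baso-like cells it was 4.57% to 16.5% and 4.25% to 9.86%. In CLP-like cells it was 4.75% to 8.69% in WT vehicle and 5.30% to 29.6% in WT IL1β mice. It exceeded all Prdx2 UMIs in at least 1 mouse in B/plasma-like cells (up to 218% in WT vehicle) and T/NK-like cells (up to 108% in Tet2-KO IL1β), where it sets no limit. Rnaseh2a and Junb overlap Prdx2 (chr8:84969587-84974834) on the other strand.

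Prdx5 (chr19:6906697-6910106, minus strand), which removes peroxides in several organelles, was lower with IL1β in 10 of 15 classes in WT and in 4 of 15 in Tet2-KO mice. The Tet2-KO count was 5 without the vehicle library of mice 1 and 2 and 0 of 14 without that of mice 3 and 4, with medians of -0.35 and -0.27. In Mono-like cells of WT mice it was 877, 1048, 751 and 648 with vehicle and 434, 515, 395 and 329 with IL1β, without overlap (-0.95 ± 0.15, adjusted p = 0.000663). DC-like cells had 303, 630.0, 305 and 265 and 194, 121, 119 and 154 in WT mice (-1.07 ± 0.20, adjusted p = 0.00254), where vehicle mouse 2, with 19 Prdx5 UMIs in 11 cells, stood far above the others but all 4 vehicle mice were above the IL1β mice. T/NK-like cells of WT mice had 212, 188 and 174 (n = 3) and 105, 26.5, 83.6 and 97.5 (-1.09 ± 0.28, adjusted p = 0.0343). In Tet2-KO mice the largest called fall was in DC-like cells, from 250.2, 279, 315 and 291 to 105, 191, 173 and 170.1 (-0.76 ± 0.19, adjusted p = 0.0277), which did not overlap. It was -0.64 and not called (adjusted p = 0.412) without the vehicle library of mice 3 and 4, and -0.87 (adjusted p = 0.011) without that of mice 1 and 2. The median log2 fold change over classes was -0.63 in WT and -0.39 in Tet2-KO mice. Trmt112 overlaps Prdx5 on the other strand.

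Prdx1 (chr4:116685544-116700822, plus strand), the other cytosolic peroxiredoxin, was lower with IL1β in 3 of 15 classes in WT (EryB-like, IMP-like and MegP-like) and in 6 of 15 in Tet2-KO mice. The Tet2-KO count was 9 without the vehicle library of mice 1 and 2 and 2 without that of mice 3 and 4, with medians of -0.52 and -0.21 against -0.36 with all mice. In HSC-like cells it was 432, 531, 442 and 523 in Tet2-KO vehicle and 272, 321, 349 and 345 in Tet2-KO IL1β mice, without overlap (-0.57 ± 0.11, adjusted p = 0.000833), and the change was -0.58 and -0.55 without each vehicle library, called both times. In WT mice the HSC-like values were 502, 411, 466 and 464 and 398, 409, 320.1 and 340.3. These did not overlap either, but the change of -0.34 ± 0.12 was not past the threshold (adjusted p = 0.0531). IMP-like cells were called in both genotypes, at -0.43 ± 0.11 in WT (adjusted p = 0.00474) and -0.55 ± 0.10 in Tet2-KO mice (adjusted p = 0.000394), where the change was -0.70 and -0.39 without mice 1 and 2 or 3 and 4 (adjusted p = 7.48e-05 and 0.0313).

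Sod1, the cytosolic superoxide dismutase, was higher with IL1β in 13 of 15 classes in WT mice. In all 15 classes every WT IL1β mouse was above every WT vehicle mouse, but the share of all genes without overlap was not counted. The 15 classes also come from the same mice and libraries. The log2 fold changes of Sod1 in WT lay between 0.62 and 1.03 with a median of 0.80, a narrow range over cell types that differed 4.23-fold in level. In HSC-like cells Sod1 was 222, 193, 221 and 231 in WT vehicle and 387, 361, 364 and 274 in WT IL1β mice (0.67 ± 0.16, adjusted p = 0.00809). DC-like cells had 205, 199, 261 and 249 and 465, 477, 556 and 395 (1.03 ± 0.21, adjusted p = 0.00376), and Mono-like cells had 235, 194, 301 and 282 and 491, 497, 544 and 438 (0.91 ± 0.17, adjusted p = 0.00229). T/NK-like cells had 129, 151 and 142 (n = 3) and 258, 265, 256 and 336 (1.00 ± 0.26, adjusted p = 0.0355). None of these groups overlapped. The mitochondrial share was also higher in every IL1β library, and its part in the rise was not tested. Scaf4 overlaps Sod1 (chr16:90220754-90226329) on the other strand.

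For Tet2-KO mice the rise of Sod1 depended on which vehicle library was used. Sod1 was called in 10 of 15 classes, with a median of 0.64 (0.20 to 1.27), in 12 classes with a median of 1.01 without the vehicle library of mice 1 and 2, and in 3 classes with a median of 0.34 (-0.02 to 0.63) without that of mice 3 and 4. In HSC-like cells the values were 266, 309, 148 and 172 with vehicle and 322, 315, 296 and 311 with IL1β. Vehicle mice 1 and 2 lay near or within the IL1β range and vehicle mice 3 and 4 far below it. The change was 0.52 ± 0.16 (adjusted p = 0.0206) with all mice, 0.95 ± 0.13 (adjusted p = 2.92e-05) without mice 1 and 2, and 0.13 ± 0.13 (adjusted p = 0.634) without mice 3 and 4. CLP-like cells showed the same split, with 214, 198, 81.7 and 91.0 against 363, 264, 346 and 335 (1.27 ± 0.28, adjusted p = 0.00787). The change was 0.63 without mice 3 and 4 (adjusted p = 0.311) and 1.88 without mice 1 and 2 (adjusted p = 2.27e-05). In MEP-like cells Sod1 was 331, 175 and 174 (n = 3) and 446, 441, 343 and 382 (0.84 ± 0.16, adjusted p = 0.00267). It was 1.2 without mice 1 and 2 (adjusted p = 1.9e-06) and 0.27 without mice 3 and 4 (adjusted p = 0.831), which leaves 1 vehicle mouse whose spread is assumed to be that of the other groups. In IMP-like cells, with 253, 271, 161 and 156 against 370.4, 355, 322 and 338 (0.73 ± 0.13, adjusted p = 0.000256), the change was called without mice 3 and 4, at 0.40 (adjusted p = 0.0149), and without mice 1 and 2, at 1.12 (adjusted p = 2.35e-07).

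**Figure D4:**
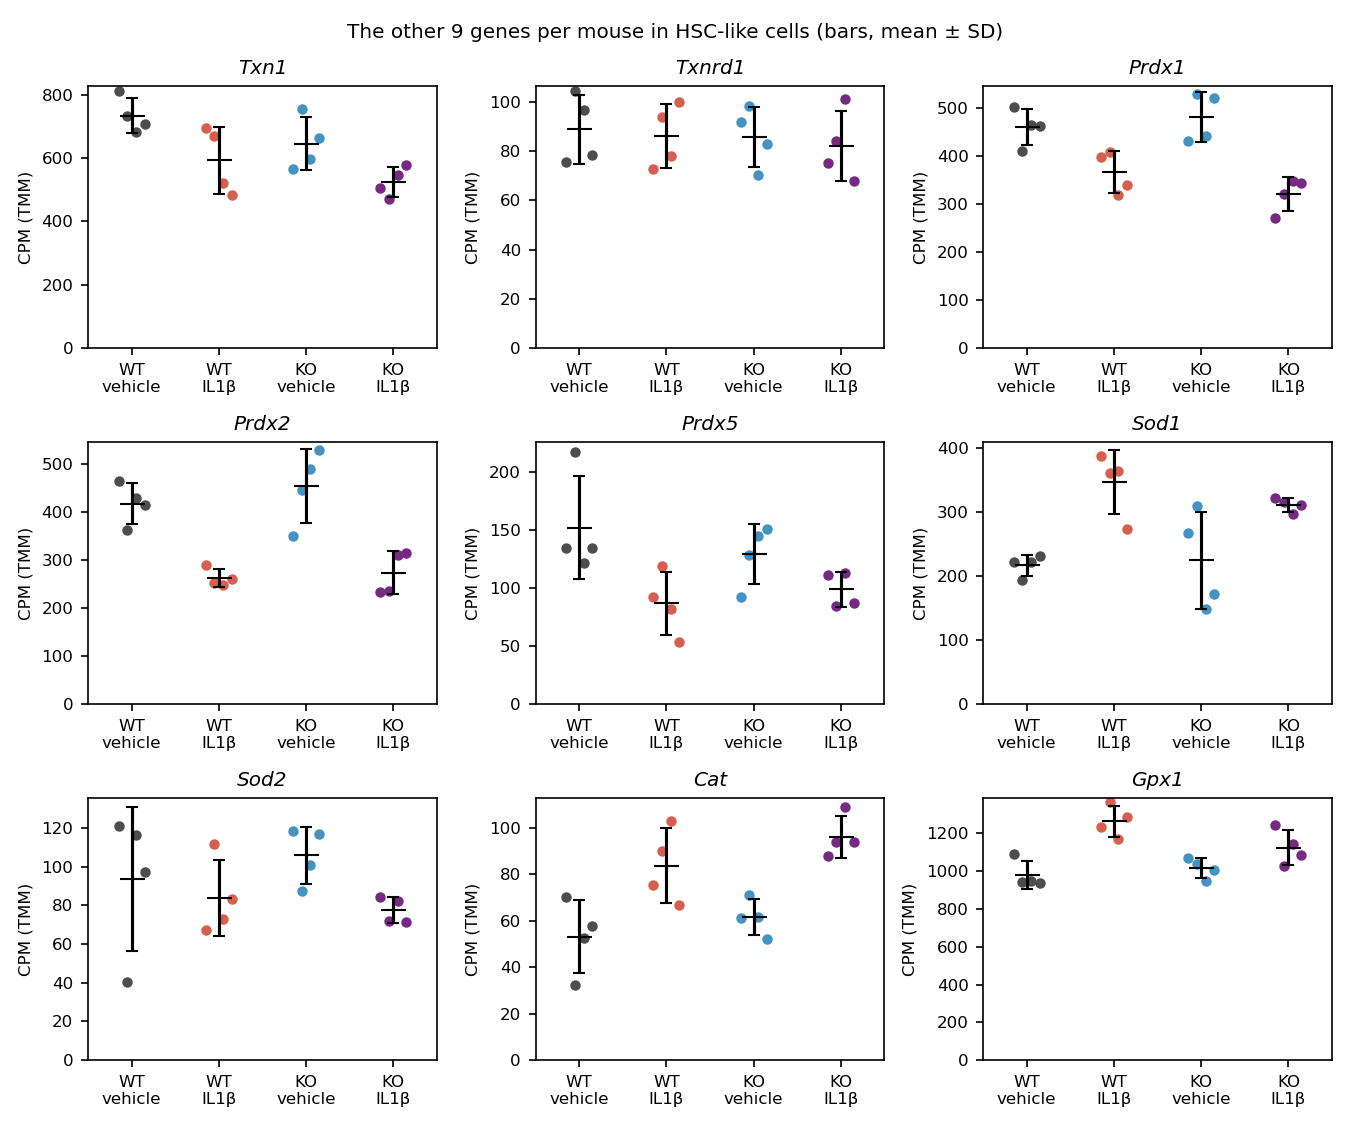
The 9 genes other than Txnip in HSC-like cells of each mouse (points, TMM-scaled CPM) by group, with bars for mean ± SD. For Sod1, the Tet2-KO vehicle mice fall into 2 mice at 266 and 309 and 2 at 148 and 172, which are the mice of separate libraries, and the WT IL1β mice sit above the WT vehicle mice.

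Sod2 (chr17:13006846-13040063, plus strand), the mitochondrial dismutase, moved the other way. It was lower with IL1β in 6 of 15 classes in WT and 5 of 15 in Tet2-KO mice, and its fold change was negative in 15 of 15 in both. Without the Tet2-KO vehicle library of mice 3 and 4 it was positive in 2 of 14 classes in Tet2-KO mice and called as lower in 2, and without that of mice 1 and 2 it was called in 5. In GMP-like cells Sod2 was 137, 109, 102 and 106 in WT vehicle and 76.6, 87.6, 53.1 and 70.3 in WT IL1β mice (-0.66 ± 0.14, adjusted p = 0.00152). Tet2-KO mice had 95.2, 105, 125 and 133 and 61.8, 75.8, 75.1 and 70.2 in the same class (-0.69 ± 0.13, adjusted p = 0.000443). The groups were apart in both genotypes, and the Tet2-KO change was called without either vehicle library (-0.86 and -0.50, adjusted p = 0.000226 and 0.0277). Neut-like cells of Tet2-KO mice had the largest called change, -0.93 ± 0.24 (adjusted p = 0.0246), with 54.4, 62.8, 80.2 and 26.3 against 23.7, 34.5, 35.3 and 27.9, but vehicle mouse 4, with 2 Sod2 UMIs in 12 cells, lay within the IL1β range. Without the vehicle library of mice 1 and 2 or of 3 and 4 the change was -1.04 and -0.85, about as large but not called (adjusted p = 0.165 and 0.0952).

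Cat (chr2:103453849-103485160, minus strand), the peroxisomal catalase, was higher with IL1β in 7 of 15 classes in WT and 6 of 15 in Tet2-KO mice. The Tet2-KO count was 6 without the vehicle library of mice 1 and 2 and 1 of 14 without that of mice 3 and 4, while the median log2 fold change over classes was 0.43 and 0.38, against 0.40 with all mice. In HSC-like cells it was 61.0, 71.1, 61.8 and 52.3 in Tet2-KO vehicle and 87.7, 93.9, 109 and 93.7 in Tet2-KO IL1β mice, without overlap (0.69 ± 0.14, adjusted p = 0.0012). Without the vehicle library of mice 3 and 4 this change was 0.60 (adjusted p = 0.0717), and without that of mice 1 and 2 it was 0.75 (adjusted p = 0.00278). WT mice had 70.1, 32.2, 52.4 and 57.8 and 75.2, 90.2, 103 and 66.7, with a slight overlap (0.59 ± 0.16, adjusted p = 0.0158). The largest called change was in Neut-like cells of WT mice, where Cat was scarce, with 14.3, 3.57, 27.7 and 16.4 against 37.6, 28.9, 46.3 and 41.5 (1.19 ± 0.28, adjusted p = 0.0277). In Neut-like cells of Tet2-KO mice it was 28.6, 35.1, 25.7 and 26.3 and 25.4, 22.5, 21.2 and 28.8 (-0.28 ± 0.26, adjusted p = 0.579). The test of the difference between genotypes gave -1.48 ± 0.39, with an unadjusted edgeR p of 0.000761 and an adjusted p of 0.681.

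Gpx1 (chr9:108338903-108340343, plus strand) was called in 1 of 15 classes in WT mice and in 0 in Tet2-KO mice by edgeR, where 1 class had an unadjusted p under 0.05 and DESeq2 called 0. The called class was HSC-like cells, with 1089, 942, 948 and 937 in WT vehicle and 1235, 1365, 1169.6 and 1288 in WT IL1β mice, which did not overlap (0.37 ± 0.09, adjusted p = 0.00904). In this class the summed GMP markers were also higher and the summed HSC markers lower with IL1β in WT mice, and in WT vehicle mice Gpx1 was higher in GMP-like than in HSC-like cells. Their part in the change was not tested. Tet2-KO mice had 1069.8, 1039, 946 and 1008 and 1244, 1027, 1142 and 1086, which overlapped (0.15 ± 0.09, adjusted p = 0.267). In HSC-like cells altogether, 5 of the 10 genes were called in each genotype, against 12.6% of 9680 genes in WT and 20.4% in Tet2-KO mice: Sod1, Cat and Gpx1 higher and Prdx2 and Prdx5 lower in WT, and Sod1 and Cat higher and Prdx1, Prdx2 and Sod2 lower in Tet2-KO mice. Of the Tet2-KO calls, those of Prdx1 and Prdx2 were kept without either vehicle library. Sod2 was at -0.51 without mice 1 and 2 and -0.49 without mice 3 and 4, against -0.50 with all mice, and neither was called (adjusted p = 0.0518 and 0.17), and Sod1 and Cat were not called without mice 3 and 4 (adjusted p = 0.634 and 0.0717). The plot of the other 9 genes in HSC-like cells shows each mouse.

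Whether loss of Tet2 changed these genes was tested in the same fits. With vehicle, 0 of 150 pairs passed by edgeR, against 0.0383% of all pairs, with 6 at an unadjusted p under 0.05 and 0 by DESeq2. With IL1β, 0 of 150 passed, against 0.159% of all pairs, with 19 at an unadjusted p under 0.05 and 0 by DESeq2. The differential response to IL1β (interaction) had 0 of 150, against 0.00255% of all pairs, with 14 at an unadjusted p under 0.05 and 0 by DESeq2. At the same unadjusted cutoff, 465 of 9680 genes passed in HSC-like cells with vehicle, 731 with IL1β and 371 for the interaction. The unadjusted counts of members are therefore a description only. These tests share groups with those of IL1β. Leaving out 1 mouse gave at most 1 called pair with vehicle (without Tet2-KO vehicle mouse 1) and at most 2 with IL1β (without WT IL1β mouse 2).

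Txnip in HSC-like cells differed by -0.05 ± 0.19 on the log2 scale between Tet2-KO and WT vehicle mice (adjusted p = 1) and by 0.44 ± 0.18 between Tet2-KO and WT IL1β mice (adjusted p = 0.534). The interaction was 0.50 ± 0.27 (adjusted p = 1). Over the 15 classes the interaction of Txnip was positive in 13, with a median of 0.44 and a range of -0.08 to 1.19, and 5 had an unadjusted p under 0.05 (B/plasma-like, Baso-like, CLP-like, Prog-like and T/NK-like), the smallest adjusted p being 0.31. For the interaction, 370 of 3699 genes in T/NK-like and 331 of 9682 in Prog-like cells were under this unadjusted cutoff. T/NK-like cells had 172, 317, 314 and 156 in WT IL1β and 517, 467, 207 and 298 in Tet2-KO IL1β mice, which overlapped (0.76 ± 0.27, adjusted p = 0.129). In B/plasma-like cells the IL1β groups were apart, with 129, 175, 133 and 98.8 in WT and 192, 178, 201 and 206 in Tet2-KO mice (0.55 ± 0.22, adjusted p = 0.359).

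Prdx5 had the smallest adjusted p of the genotype comparisons. With IL1β it was higher in Tet2-KO than in WT mice by point estimate in 15 of 15 classes (0.06 to 0.88, median 0.31), and 7 classes had an unadjusted p under 0.05. In the same comparison, 580 of 3699 genes in T/NK-like and 743 of 9716 in IMP-like cells were under this unadjusted cutoff. T/NK-like cells had 105, 26.5, 83.6 and 97.5 in WT IL1β and 132, 139, 229 and 179 in Tet2-KO IL1β mice, without overlap (0.88 ± 0.26, adjusted p = 0.077). IMP-like cells had 231, 273, 213 and 194 and 289, 255, 344 and 334, which overlapped (0.42 ± 0.11, adjusted p = 0.137). The libraries of a group differed in Prdx5 as well. With IL1β, the library of mice 1 and 2 was above that of mice 3 and 4 in 13 of 15 classes in WT (median log2 difference 0.31) and in 1 of 15 in Tet2-KO mice (median -0.21), and the part of this in the genotype difference was not tested. With vehicle the estimates for Prdx5 ran from -0.27 to 0.38 with a median of 0.01. Sod1 in the IL1β groups was lower in Tet2-KO mice by point estimate in 14 of 15 classes (-0.47 to 0.04), and 1 class had an unadjusted p under 0.05.

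**Figure D5:**
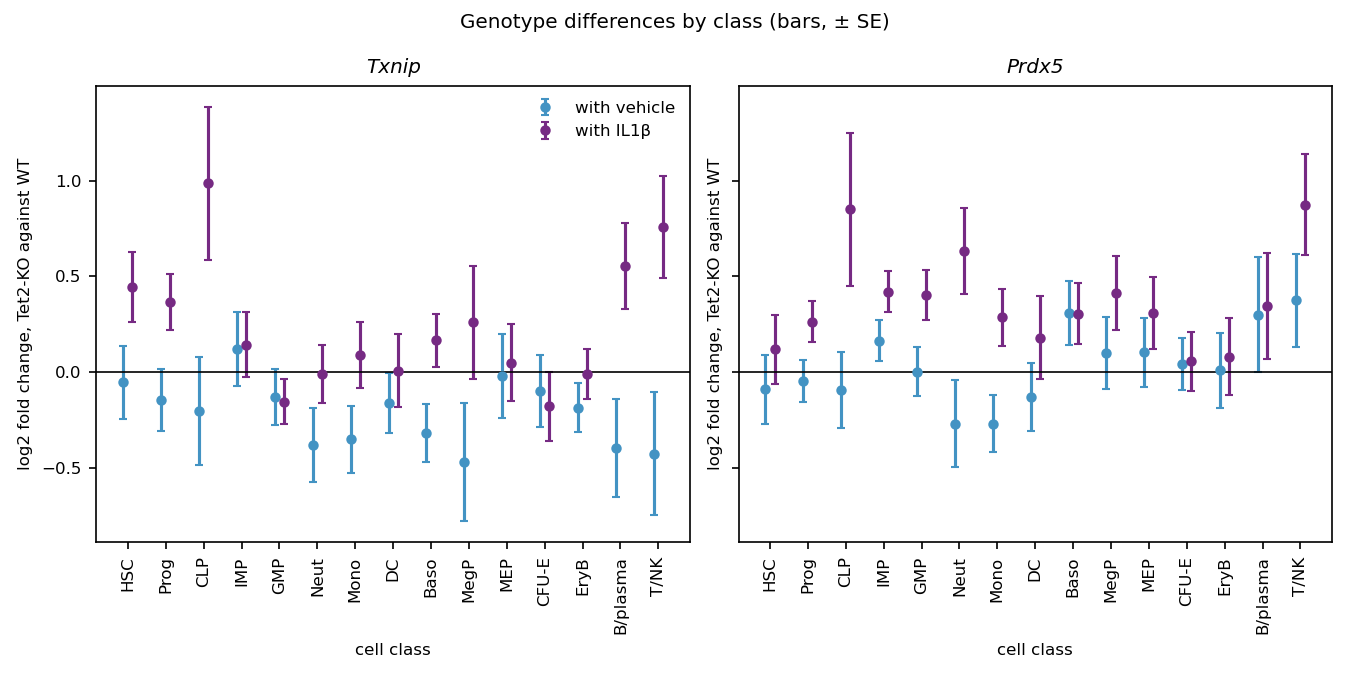
Log2 fold change (± SE) of Tet2-KO against WT mice for Txnip and Prdx5 in the 15 tested classes, with vehicle and with IL1β. With IL1β the estimates for Prdx5 are above 0 in 15 of 15 classes, and none of the values shown passed the threshold.

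Other genes of the same chemistry were counted in the same fits, from lists chosen with earlier results of these data known. Their counts are read against the share of all pairs, which was 5.11% higher and 7.11% lower in WT mice, and 6.44% and 8.46% in Tet2-KO mice. In Tet2-KO mice this share was 1.37% higher and 2% lower without the vehicle library of mice 3 and 4, and 6.69% and 9.1% without that of mice 1 and 2, and each list is also given without each library. Of 146 gene-class pairs of 11 other thioredoxin-system genes, 6 were higher (4.11%) and 27 lower (18.5%) with IL1β in WT, and 6 (4.11%) and 33 (22.6%) in Tet2-KO mice, where 0 and 9 of 143 were called without mice 3 and 4, and 4 and 36 of 148 without mice 1 and 2. Txnl4a, a thioredoxin-like splicing factor, fell by 1.19 on the log2 scale in GMP-like cells of WT mice (adjusted p = 5.48e-05) and by 1.27 in IMP-like cells of Tet2-KO mice (adjusted p = 2.95e-06), and Msrb1, a methionine sulfoxide reductase, rose by 0.60 ± 0.15 and 0.67 ± 0.13 in HSC-like cells of WT and Tet2-KO mice (adjusted p = 0.00976 and 0.00103). Among other peroxiredoxins, sestrins and sulfiredoxin, 4 of 76 pairs were higher (5.26%) and 7 lower (9.21%) in WT, near the background, and 4 (5.26%) and 13 (17.1%) in Tet2-KO mice, where the counts were 1 and 4 of 82 and 2 and 15 of 84 without these libraries, in the same order. Prdx4, the peroxiredoxin of the endoplasmic reticulum, fell by 1.06 in WT and 1.24 in Tet2-KO Prog-like cells taken as 1 class (adjusted p = 0.000371 and 6.05e-05), in which the share of cluster 4 also fell with IL1β. Prdx4 was far higher in cluster 4 than in cluster 13 (138 ± 26.0 and 20.5 ± 9.84 CPM in WT vehicle mice). Within cluster 4 it was 100.3 ± 22.0 in WT IL1β mice, and 135 ± 18.6 and 104 ± 21.8 in Tet2-KO vehicle and IL1β mice. The vehicle and IL1β ranges overlapped in both clusters and both genotypes. The list of other superoxide-handling genes held only 4 genes, of which 3 were tested in HSC-like cells. Its pairs are therefore few genes counted again in many classes of the same mice. It had 0 of 41 pairs higher and 19 lower (46.3%) in WT, and 0 and 18 (43.9%) in Tet2-KO mice, where the counts were 0 and 3 of 42 and 2 and 18 of 43. One of its genes, Ccs, the copper chaperone of Sod1, fell by 0.84 in HSC-like cells of WT mice (adjusted p = 0.0285) and by 0.74 in GMP-like cells of Tet2-KO mice (adjusted p = 0.00113). Of the Tet2-KO changes named here, those of Txnl4a and Prdx4 were called without either vehicle library, and those of Msrb1 and Ccs were called without mice 1 and 2. Without mice 3 and 4 Msrb1 was about as high, at 0.60 (adjusted p = 0.0578), and Ccs was at -0.39 (adjusted p = 0.095), and neither was called.

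The glutathione system was mixed, with 22 of 198 pairs higher (11.1%) and 30 lower (15.2%) in WT and 31 (15.7%) and 30 (15.2%) in Tet2-KO mice, where 8 and 4 of 202 were called without mice 3 and 4, and 35 and 39 of 202 without mice 1 and 2. Gstm1, a glutathione transferase, rose by 1.55 ± 0.16 in WT and 1.90 ± 0.17 in Tet2-KO Prog-like cells (adjusted p = 5.07e-06 and 1.85e-07), and Gsr, which reduces glutathione, rose by 0.89 ± 0.16 and 1.17 ± 0.16 there (adjusted p = 0.000454 and 2.12e-05). Both genes were higher in cluster 13, whose share of the class was larger with IL1β, than in cluster 4, and Gstm1 is also among the 10 leading genes of the GMP cluster. Within cluster 4, Gstm1 was 37.3 ± 8.65 and 71.3 ± 24.6 CPM in WT vehicle and IL1β mice and 33.7 ± 11.8 and 65.0 ± 16.9 in Tet2-KO mice. Within cluster 13 it was 103 ± 22.7 and 285 ± 53.7 in WT and 65.8 ± 17.4 and 242 ± 65.0 in Tet2-KO mice. The vehicle and IL1β ranges of Gstm1 and of Gsr were apart in both clusters and both genotypes. Subunits of the phagocyte NADPH oxidase, which makes superoxide, had 13 of 79 pairs higher (16.5%) and 24 lower (30.4%) in WT and 16 (20.3%) and 14 (17.7%) in Tet2-KO mice, where the counts were 3 and 2 of 81 and 21 and 16 of 83 without these libraries, in the same order. Its catalytic subunit Cybb rose by 2.51 ± 0.57 in WT and 2.06 ± 0.48 in Tet2-KO HSC-like cells (adjusted p = 0.00465 and 0.0038), in which the summed GMP markers were also higher with IL1β. Cybb was scarce there with vehicle, at a mean of 2.49 TMM-scaled CPM in WT (lowest mouse 0.0) and 5.31 in Tet2-KO mice, where the groups overlapped. Another subunit, Cyba, fell by 0.91 ± 0.18 in WT HSC-like cells (adjusted p = 0.00143). Of the 6 listed genes, 3 were called higher and 1 lower in this class in WT, and 3 and 2 in Tet2-KO mice. The Nrf2 axis had 9 of 148 pairs higher (6.08%) and 31 lower (20.9%) in WT and 8 (5.41%) and 32 (21.6%) in Tet2-KO mice, where they were 2 and 1 of 148 and 11 and 35 of 154. Ftl1, the ferritin light chain, fell by 0.79 in WT IMP-like cells and by 0.69 in Tet2-KO HSC-like cells (adjusted p = 0.000115 and 0.000333), and Blvrb, biliverdin reductase B, fell by 1.31 in WT IMP-like cells and by 1.34 in Tet2-KO Prog-like cells (adjusted p = 0.00154 and 0.000944), where the ranges were apart within cluster 4 and overlapped within cluster 13. With the Prog class taken as 1, the Tet2-KO ranges overlapped (12.2 to 53.4 TMM-scaled CPM with vehicle and 12.7 to 18.6 with IL1β). Blvrb is also among the 10 leading genes of cluster 14, an EryB cluster. The part of free erythroid RNA in its falls was not tested. Of the genes that rose, Maff, a small Maf partner of Nrf2, rose by 2.26 ± 0.72 and 2.69 ± 0.46 in HSC-like cells (adjusted p = 0.038 and 0.00028). Maff was scarce there with vehicle, at a mean of 1.85 TMM-scaled CPM in WT (lowest mouse 0.0) and 3.59 in Tet2-KO mice. Alpha-arrestins and regulators of Txnip had 7 of 95 pairs higher (7.37%) and 1 lower (1.05%) in each genotype, the first near the background and the second below it, and in Tet2-KO mice 1 and 3 of 95 and 8 and 2 of 97 without these libraries, with Arrdc1 at 0.79 ± 0.12 in WT and 0.49 ± 0.11 in Tet2-KO GMP-like cells (adjusted p = 0.000144 and 0.00137). Without mice 3 and 4 the Tet2-KO changes of Gstm1, Gsr, Ftl1, Maff and Arrdc1 named here were still called, and those of Cybb (1.44, adjusted p = 0.186) and Blvrb (-0.60, adjusted p = 0.256) were smaller and not called. Without mice 1 and 2 all of them were called. Between genotypes, 0 of 783 pairs of these lists passed with vehicle and 2 (0.255%) with IL1β, near the 0.159% of all pairs. All adjusted p values here are from edgeR.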

How the data were processed

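Lineage-depleted bone marrow of 16 mice was profiled in 8 pooled libraries. The authors deposited a raw UMI count per gene and cell barcode, made with Cell Ranger 3.1.0 on mm10, with hashtag counts beside them (Seurat 3.2.3 is also named in the submitters' processing notes). Whether counting used strand is not given in the sources used here.

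Barcodes with at least 750 genes and at most 10% mitochondrial UMIs were kept (94917 barcodes). Hashtag counts assigned cells to mice with Seurat 5.3.0, which set aside 3938 doublets and left 33083 cells without a call. Assigned cells of WT vehicle mice were clustered on 2000 variable genes and 30 components with 20 neighbours at resolution 1 (Python 3.11.15, leidenalg 0.10.2). This gave 26 clusters, named from 8 markers per class. Each other cell was placed in the cluster most frequent among its 20 nearest WT vehicle cells. The groups were thus not clustered together, and cells of IL1β or Tet2-KO mice could form no cluster of their own. The 10 genes and the other redox lists were kept out of the variable genes.

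UMI counts were summed per mouse and class, for mice with at least 10 cells, and fitted with edgeR 4.0.16 (quasi-likelihood test, TMM scaling, all groups in 1 fit per class) with Benjamini-Hochberg adjustment over all genes of the class. Fold changes are log2 with SE. The alternatives were DESeq2 1.42.0, RLE factors, no filter on low counts, a replicate block, libraries as replicates, a per-cell marker gate and leaving out each mouse. With libraries as replicates, the sums also held the 33083 cells without a mouse call. Tested on simulated data for HSC-like cells (9680 genes, 200 changed), the fit recovered 62% of changes of 1 on the log2 scale for IL1β in WT and 72% in Tet2-KO mice. For Tet2-KO against WT it recovered 68.5% with vehicle and 76% with IL1β. Of the genes called, 4.62% and 3.36% were unchanged ones for IL1β in WT and Tet2-KO mice. For Tet2-KO against WT these shares were 6.16% with vehicle and 8.43% with IL1β. The simulated mice had no differences between libraries, so recovery in their presence was not tested.

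All 10 genes are named. Full values are given for Txnip in HSC-like cells and for up to 10 called pairs per comparison with the largest change, with at most 3 classes per gene. Other pairs described in full, chiefly in HSC-like cells, were chosen after their values were seen. Members and lists were chosen with earlier results of these data known. Same-numbered mice and pools come from different animals, so the numbers do not pair the samples. For each gene, up to 3 genes most alike in pattern over classes are named, and 1 such gene is not reported here.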

Additional observations from a re-analysis of the deposited data

Results flagged for a closer look

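In 5 of the 73 groups of 4 mice examined, 1 mouse lay farther from the other 3 than Dixon's 95% critical value allows, and chance flags about 1 in 20 groups. Txnip in HSC-like cells was 252 TMM-scaled CPM in WT vehicle mouse 4, against 185.7 to 193.2 in the others. Txnip in Prog-like cells was 119 in Tet2-KO IL1β mouse 2, against 86.2 to 90.1. Prdx5 in DC-like cells was 630.0 in WT vehicle mouse 2, a value that rests on 19 UMIs in 11 cells, against 265 to 304.6. Sod1 in T/NK-like cells was 336 in WT IL1β mouse 4, against 256.1 to 264.6. Sod2 in Neut-like cells was 82.3 in WT vehicle mouse 1, against 42.8 to 46.6.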

How the results depend on the processing

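With libraries in place of mice as replicates, the number of called pairs for IL1β fell to 22 in WT and 19 in Tet2-KO mice, from 53 and 46. Library sums also held the cells not assigned to a mouse, and 144375 pairs of all genes were tested there, against 117575. That setting thus changed the cells as well as the replicates. Leaving out the Tet2-KO vehicle library of mice 3 and 4, chosen after seeing the data, gave 13 in Tet2-KO mice, and leaving out that of mice 1 and 2 gave 52 and added 1 called pair for Tet2-KO against WT with vehicle. Leaving out 1 mouse gave 33 to 57 in WT (33 without WT IL1β mouse 3, 35 without WT vehicle mouse 1) and 33 to 55 in Tet2-KO mice, 0 to 1 for Tet2-KO against WT with vehicle and 0 to 2 with IL1β. No filter on low counts gave 3 for Tet2-KO against WT with IL1β. The cause was not tested.

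Txnip in HSC-like cells of WT mice (-0.02) changed sign with DESeq2 (0.00589), no filter (0.00767), the replicate block (0.00224), libraries as replicates (0.0915) and the per-cell gate (0.104), and ranged from -0.11 to 0.131 with 1 mouse left out. In Tet2-KO mice (0.479) it passed the threshold with no filter (0.51), the replicate block (0.497), libraries as replicates (0.65) and the per-cell gate (0.698), and ranged from 0.318 to 0.625 with 1 mouse left out. Tet2-KO against WT with vehicle was 0.0462 without the Tet2-KO vehicle library of mice 1 and 2, and -0.171 to 0.0957 with 1 mouse left out. The replicate block gave 54 and 55 called pairs in WT and Tet2-KO mice. In HSC-like cells the differences between pools correlated at -0.080 to 0.089 over 6 pairs of groups. Depth limits the smallest classes most, and Txnip rested on as few as 24 UMIs per mouse in HSC-like cells.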
